A study of Mus musculus with 12 samples.

Results

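Dectin-1, the product of Clec7a, was examined with its relatives among the myeloid C-type lectin receptors, its signaling partners and the oxidase subunit Cybb in mouse breast tumors given a STING agonist, a PARP inhibitor or both. The genes were chosen by name: Clec7a, Clec4e, Clec4n, Clec5a, Clec4a2, Card9, Syk and Cybb, of which 7 of 8 had a row among the 750 genes of the deposited table. Clec4e was not analysed here. All 7 were kept with 689 genes in all by a filter that asked for a normalized count of at least 20 in at least 3 tumors.

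Tumors of the K14-Cre;Brcaf/fTrp53f/f model, labelled as triple negative, had been grafted to the mammary fat pads of female FVB/129P2 mice, a syngeneic host, and RNA was measured in snap-frozen pieces 3 days after treatment began. In this model the keratin 14 promoter drives Cre in basal epithelial cells, so the floxed alleles, which the study's methods give as Brca1 and Trp53, are deleted in the epithelium, and tumors of all 4 groups carried this genotype in hosts with their own immune system. Vehicle tumors received DMSO by the intraperitoneal route and saline by injection into the tumor. ADU-S100 tumors received a single injection of 50 μg of that STING agonist into the tumor, olaparib tumors received 50 mg/kg of that PARP inhibitor daily, and combination tumors received both agents. Per the study's methods, ADU-S100 mice also received DMSO by the intraperitoneal route, and olaparib tumors were also injected with saline. Each group held 3 tumors, named by their tumor numbers (vehicle 1269, 1529 and 1536, ADU-S100 1506, 1512 and 1513, olaparib 1510, 1517 and 1521, combination 1251, 1270 and 1539).

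C-type lectins of myeloid cells recognize sugars and lipids of microbes and ligands on dying or stressed cells. Dectin-1 binds beta-glucan and signals through its own tail to the kinase Syk, while Dectin-2 and the receptor of Clec5a borrow signaling chains to reach the same kinase. Syk then engages the adaptor Card9, which assembles Bcl10 and Malt1 to activate NF-kB, and in phagocytes the same receptors can trigger the NADPH oxidase, whose catalytic subunit is encoded by Cybb.

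Values are normalized counts from nanoString nCounter, a method that counts fluorescent barcodes on probes hybridized to RNA. Total counts per tumor, recovered from the spacing of the deposited values, were 106206 to 1519471, and the olaparib tumor 1517 was the lowest. Depth went with the group, since the combination tumors were all deep, at 1339258 to 1491854 counts, against 372390 to 683982 with ADU-S100, 106206 to 1392128 with olaparib and 632152 to 1519471 with vehicle. The factors from counts to normalized counts were 0.81 to 0.82 in the combination, 1.43 to 2.85 with ADU-S100 and 0.68 to 1.49 with vehicle, and ranged most widely with olaparib. In tumor 1517 a normalized count of 31.4 corresponded to 3 counts, and the median of the 30 lowest genes of the panel, taken as a background level, was also 31.4, against 4.12 to 17.1 in the other tumors. Clec7a, Clec5a and Card9 each had 3 counts in tumor 1517 and were therefore at its background. The tumors are labelled as separate samples, and fewer cells of a type and less RNA per cell cannot be told apart in bulk tissue.

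Clec7a was higher in the combination than in each other group. The study had picked it from these tumors for its level in the combination, so its combination values are given as a description with no test. Clec7a was at 131, 151 and 107 normalized counts in combination tumors 1251, 1270 and 1539. It was at 25.2, 53.5 and 38.1 in the vehicle tumors, in the order of their numbers.

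In ADU-S100 tumors the Clec7a normalized counts were 88.3, 64.8 and 28.5, and in olaparib tumors they were 48.7, 31.4 and 58.3. Every combination tumor was thus above every one of the 9 other tumors, and the closest pair was combination tumor 1539 at 107 and ADU-S100 tumor 1506 at 88.3. The exact Poisson 95% intervals of this pair overlapped, from 89.8 to 127 in tumor 1539 and from 60.0 to 125 in tumor 1506. The interval of tumor 1539 also overlapped with those of ADU-S100 tumor 1512, from 44.6 to 91.1, and olaparib tumor 1517, from 6.48 to 91.9. That of combination tumor 1251, from 112 to 153, overlapped with the interval of ADU-S100 tumor 1506 as well. These intervals cover counting error only.

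The mean for Clec7a was 130 ± 21.8 (SD, n = 3) in the combination, 60.6 ± 30.1 with ADU-S100, 46.2 ± 13.6 with olaparib and 39.0 ± 14.2 with vehicle. On the log2 scale the combination was higher by 1.76 than vehicle, by 1.22 than ADU-S100 and by 1.50 than olaparib, each with a standard error of 0.48 (limma). Without olaparib tumor 1517 the last difference was 1.25, and with a background level subtracted in every tumor it was 2.93. Without ADU-S100 tumor 1513, the lowest of its group, the difference from ADU-S100 was 0.76.

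The ADU-S100, olaparib and vehicle levels of Clec7a overlapped and their order was not separated by the spread. ADU-S100 exceeded vehicle by 0.54 on the log2 scale (95% interval -0.51 to 1.60, limma adjusted p = 0.809), and the sign turned with quantile normalization. Olaparib exceeded vehicle by 0.26 (-0.80 to 1.31, adjusted p = 0.836), and the sign turned with 3 other settings (the same median, quantile normalization and background subtraction) and without vehicle tumor 1269. Adjusted p-values here and throughout are Benjamini-Hochberg values over all 689 genes in limma.

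**Figure D1:**
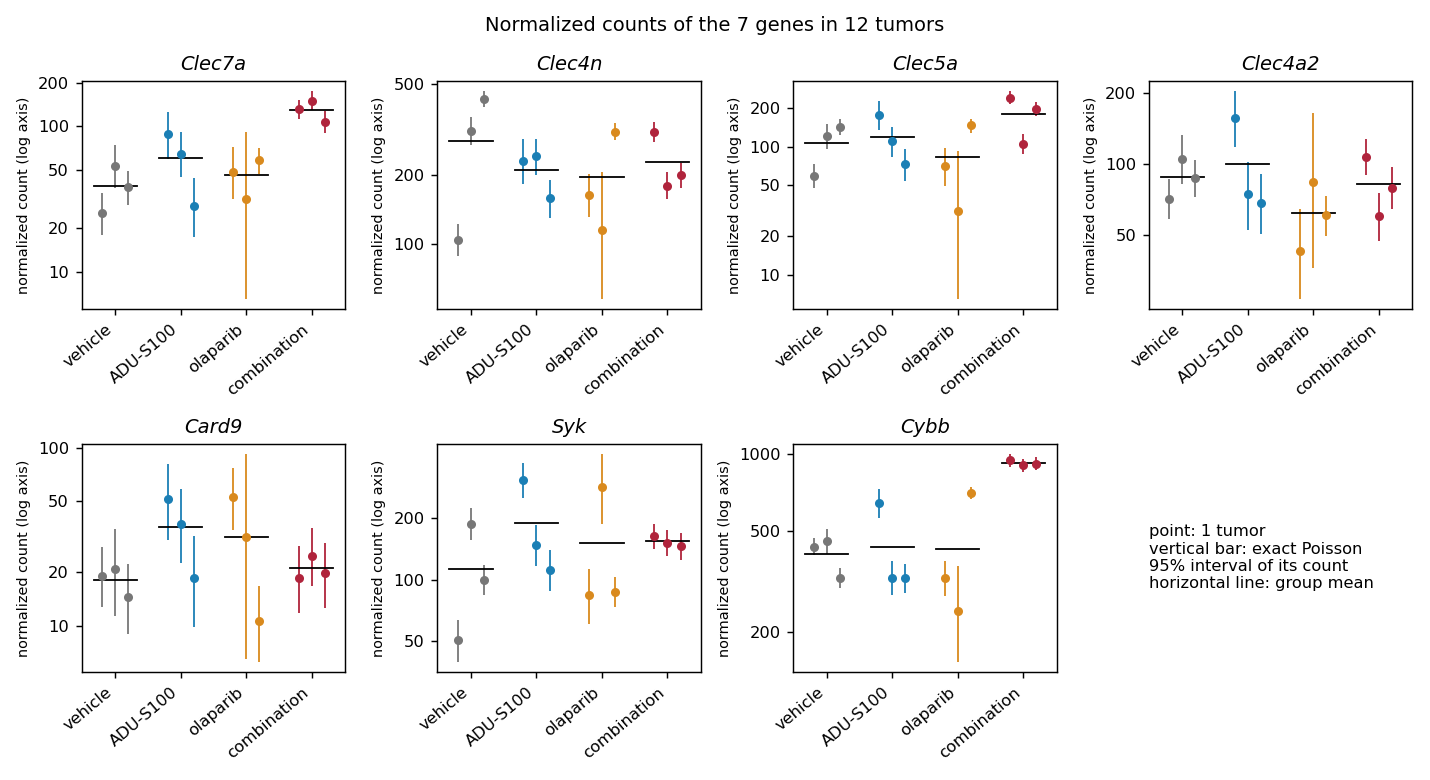
Normalized counts on log axes for the 7 genes in the 4 treatment groups, with a point per tumor, a vertical bar for the exact Poisson 95% interval of its recovered count and a horizontal line for the group mean. Clec7a and Cybb show the 3 combination tumors above all 9 others, whereas the groups of the remaining 5 genes overlap.

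Cybb, the gp91phox subunit that carries electrons across the membrane in the phagocyte NADPH oxidase, was the other member whose combination tumors stood clear of the rest. Its normalized counts in the combination were 945, 904 and 917 in tumors 1251, 1270 and 1539. They were 433, 455 and 326 in the vehicle tumors and 641, 326 and 325 in the ADU-S100 tumors. The olaparib tumors were at 325, 241 and 704, so the highest of the 9 other tumors was olaparib tumor 1521 at 704, below the lowest combination tumor at 904.

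The combination tumors lay close together for Cybb, at 922 ± 20.9 (SD, n = 3), whereas the means were 405 ± 69.3 with vehicle, 431 ± 182 with ADU-S100 and 423 ± 246 with olaparib. The combination tumors were also alike in depth, unlike those of the other groups, and the part of depth in these spreads was not tested. The log2 difference of combination over vehicle was 1.20 (SE 0.46, limma adjusted p = 0.472). It was 1.17 over ADU-S100 (adjusted p = 0.492) and 1.27 over olaparib (adjusted p = 0.594). None of these comparisons passed the adjusted threshold of 0.05.

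Olaparib tumor 1521 bore on this result. Without it the Cybb difference from olaparib rose to 1.72 with a limma adjusted p of 0.0319, while over all settings tried that adjusted p ran from 0.0319 to 0.98. Given alone, ADU-S100 differed from vehicle in Cybb by 0.03 (95% interval -0.97 to 1.03, adjusted p = 0.988) and olaparib by -0.07 (-1.07 to 0.93, adjusted p = 0.963). The ADU-S100 sign turned with the same median, with quantile normalization and with TMM. The olaparib sign stayed negative under these scalings. It turned in edgeR with the authors' factors, at 0.08, and with some single tumors left out. The effect of ADU-S100 in the presence of olaparib exceeded its effect without olaparib by 1.25 (SE 0.65, adjusted p = 0.439), a comparison added after the values were seen.

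Over the 689 genes, 22 had every combination tumor above all 9 other tumors, or 3.19%, and 2 of the 7 members, Clec7a and Cybb, were among them. Clec7a was in part chosen for this pattern and the set was assembled with results of these tumors known, so nothing is read from that count. At an unadjusted p under 0.05, Cybb was the single member past it in each combination comparison among the 6 tested there. Of all genes 7.69% passed it with vehicle as the control, 9.14% with ADU-S100 and 7.26% with olaparib, or 53, 63 and 50 genes. At the adjusted threshold the share was 0% in each comparison by limma, and by edgeR as well, where 52, 57 and 91 genes had an unadjusted p under 0.05 with the authors' factors and 62, 115 and 98 with TMM.

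**Figure D2:**
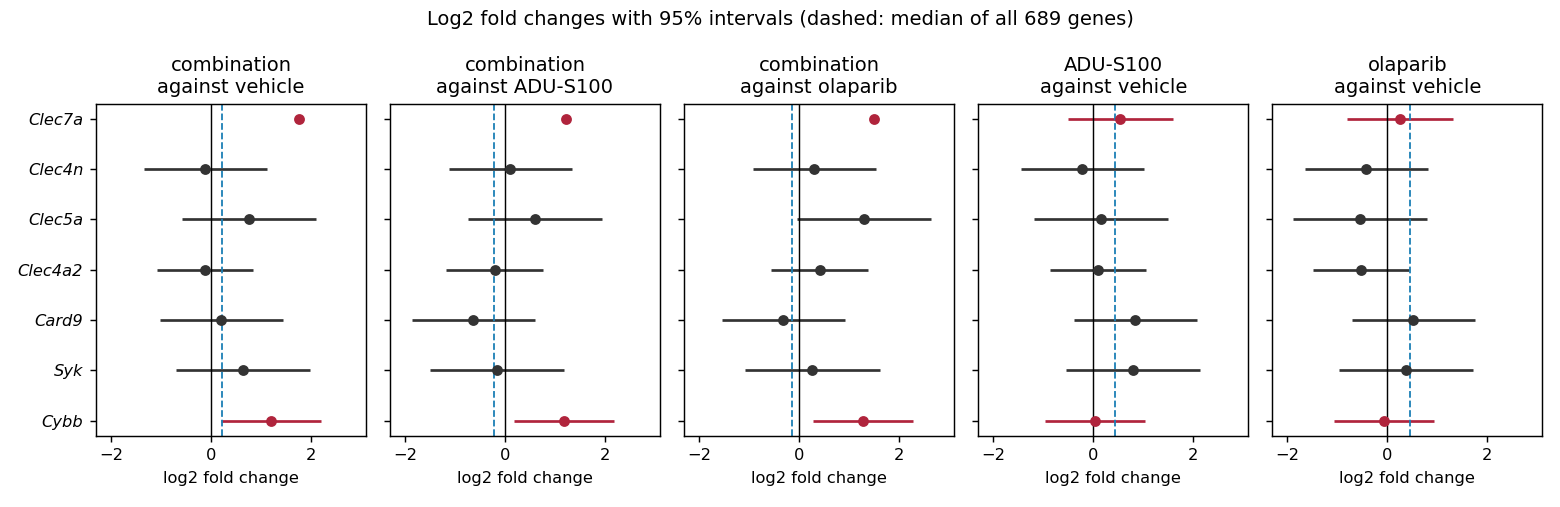
Log2 fold changes of the 7 genes in 5 comparisons, with the limma estimate as a point, its 95% interval as a bar and the median of all 689 genes as a dashed line. Clec7a has no bars in the combination comparisons, which chose it. Cybb lies between 1.17 and 1.27 in the 3 combination comparisons and near 0 for each agent alone.

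The promoters of Clec7a and Cybb were compared because in both genes every combination tumor lay above the 9 others, a search made after the values were seen. RefSeq windows from 250 bases before to 50 bases after the start of transcription (build GRCm38.p6) were given for 6 of the 7 genes, all but Clec4n. The search used the Ets-IRF composite element GGAANNGAAA on either strand, a motif known to be bound in myeloid cells and B cells by PU.1 together with IRF4 or IRF8. It was found in 2 of the 6 genes, Clec7a and Cybb, against 853 of 27025 genes, or 3.16%, in the whole table and 29 of 508 genes, or 5.71%, among the measured genes with a window. The windows of Clec5a, Clec4a2, Card9 and Syk held no match. The longest stretch shared by the Clec7a and Cybb windows had 13 bases and contained the element on the opposite strand. Clec7a has 2 annotated starts, and the element's first base is at -66 from the more downstream of them and at -60 from the other. The stretch lies 68 to 56 bases before the more downstream start of Clec7a and 2 to 14 bases after the start in Cybb. The sequences shown around it have 98 bases in Clec7a (chr6:129472795-129472892, minus strand) and 63 in Cybb (chrX:9469306-9469368, minus strand). Both are printed in the direction of transcription with the shared stretch in capitals.
Clec7a: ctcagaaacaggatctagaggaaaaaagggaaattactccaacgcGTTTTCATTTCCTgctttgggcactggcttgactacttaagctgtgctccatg
Cybb: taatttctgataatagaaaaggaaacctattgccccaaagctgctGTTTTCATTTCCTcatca
A match describes these letters and is neither a shown binding site nor a cause of the levels.

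Among the other receptors, Clec5a came nearest to the pattern of Clec7a without separating the groups. Clec5a encodes MDL-1, which signals through the chain Dap12. Its normalized counts were 241, 106 and 198 in combination tumors 1251, 1270 and 1539 and 59.3, 120 and 143 in the vehicle tumors. With ADU-S100 they were 177, 110 and 72.8, and with olaparib 70.1, 31.4 and 146. Combination tumor 1270 fell within the range of every other group. The log2 difference from olaparib was 1.30 (95% interval -0.04 to 2.64, limma adjusted p = 0.594), and it was 0.75 without tumor 1517, where Clec5a was at background. Without olaparib tumor 1521 it was 1.84 (adjusted p = 0.0861), and with background subtracted 2.68. The differences from vehicle and ADU-S100 were 0.76 (-0.58 to 2.10, adjusted p = 0.934) and 0.60 (-0.74 to 1.94, adjusted p = 0.702).

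Clec4n, which encodes Dectin-2, a receptor for fungal mannan that signals through the Fc receptor gamma chain, showed no separation between groups. Its normalized counts were 308, 180 and 199 in the combination and 104, 312 and 428 with vehicle. They were 231, 242 and 158 with ADU-S100 and 164, 115 and 309 with olaparib. The vehicle group was the widest, at 282 ± 164 (SD, n = 3), and held both the lowest and the highest tumor of the series. Combination differed from vehicle by -0.11 on the log2 scale (95% interval -1.35 to 1.12, adjusted p = 0.989). This sign turned without vehicle tumor 1536, where the difference was 0.30.

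Clec4a2 encodes DCIR, a lectin whose tail recruits phosphatases and which is known as an inhibitory receptor. It was at 108, 60.2 and 79.5 normalized counts in the combination, 71.6, 106 and 87.3 with vehicle, 157, 74.7 and 68.5 with ADU-S100 and 42.9, 83.8 and 60.7 with olaparib. All 4 groups overlapped. Combination differed from vehicle by -0.12 (95% interval -1.08 to 0.85, adjusted p = 0.989), from ADU-S100 by -0.21 (adjusted p = 0.844) and from olaparib by 0.41 (adjusted p = 0.752). Clec4a2 and Clec4n lie in the same lectin cluster of chromosome 6, and Clec7a lies elsewhere on that chromosome beside Clec1b, Clec9a, Clec1a and Olr1.

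The genes downstream of the receptors overlapped between all groups. Syk, the kinase beneath these receptors, was at 164, 152 and 146 normalized counts in the combination and at 50.5, 187 and 99.8 with vehicle. It was at 308, 147 and 111 with ADU-S100 and at 83.8, 283 and 87.2 with olaparib. The combination tumors were again close together, at 154 ± 9.03 (SD, n = 3), but inside the range of each other group. The differences of combination were 0.64 from vehicle (95% interval -0.70 to 1.98, adjusted p = 0.949), -0.16 from ADU-S100 (adjusted p = 0.911) and 0.27 from olaparib (adjusted p = 0.89). The sign against ADU-S100 turned with the same median and with quantile normalization.

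Card9, the adaptor that links Syk to NF-kB, was detected at few counts, from 3 to 30 per tumor. Its normalized counts were 18.6, 24.7 and 19.7 in the combination and 19.1, 20.8 and 14.5 with vehicle. They were 51.3, 37.3 and 18.5 with ADU-S100 and 52.6, 31.4 and 10.6 with olaparib. Outside tumor 1517 these values were 2.0 to 4.91 times the background level of their tumor. The highest Card9 values were thus in single-agent tumors, and the combination differed from ADU-S100 by -0.64 (95% interval -1.86 to 0.59, adjusted p = 0.676) and from vehicle by 0.21 (-1.02 to 1.43, adjusted p = 0.989). The sign against vehicle turned with quantile and with TMM scaling.

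For each agent alone, no member passed the adjusted threshold, and none passed an unadjusted p of 0.05, where 4.79% of all genes did with ADU-S100 and 7.26% with olaparib. Under ADU-S100 the largest member differences from vehicle were 0.84 for Card9 (adjusted p = 0.809) and 0.80 for Syk (adjusted p = 0.809), and that of Card9 was -0.070 with quantile normalization. The median of all 689 genes was itself 0.44 above vehicle with ADU-S100 and 0.45 with olaparib, against member medians of 0.16 and -0.07. In the combination, the 6 members other than Clec7a had medians of 0.42 over vehicle, -0.03 over ADU-S100 and 0.36 over olaparib, against 0.21, -0.22 and -0.15 for all genes, and these comparisons share tumors with those of the single agents. After rescaling every tumor to the same median, the all-gene medians were between -0.03 and 0.10 and Clec7a still differed by 1.56, 1.42 and 1.63, and Cybb by 0.99, 1.38 and 1.41.

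The ratio of Clec7a to each other gene was taken within each tumor from normalized counts with 1 added, so the scaling factor of the tumor cancels except for the part that the added 1 keeps. Ratios without the added 1, where it cancels in full, were computed after the data were seen. Clec7a over Clec4n, in log2, was -1.22, -0.25 and -0.89 in combination tumors 1251, 1270 and 1539, and -3.46 to -1.38 in the 9 others. The mean difference was 1.39, and every other tumor lay below the lowest combination tumor. The same separation held for Clec7a over Clec4a2, with a difference of 1.47, and over Syk, with 1.24, and for these 3 genes it also held without the added 1. The margins were narrow. The lowest combination and highest other ratios were -1.22 and -1.38 for Clec4n, 0.28 and 0.18 for Clec4a2, and -0.44 and -0.57 for Syk. The highest other ratio to Clec4a2 was that of olaparib tumor 1510, with 25 counts of Clec7a and 22 of Clec4a2. Counting error was not carried into these ratios. Over Card9 the difference was 1.74, but the separation rested on the added 1. With it, olaparib tumor 1521 was at 2.35 and the lowest combination tumor at 2.39, and without it they were at 2.46 and 2.45, so that the groups overlapped. They also overlapped after subtraction of background, with 8 of 9 other tumors below the lowest combination tumor.

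Relative to Cybb, Clec7a did not separate the combination. The ratio was -2.84, -2.57 and -3.08 in the combination and -4.05 to -2.31 in the 9 other tumors, with a mean difference of 0.28, and 3 of 9 other tumors lay below the lowest combination tumor, or 4 of 9 without the added 1. With background subtracted the difference was 0.86, and 6 of 9 lay below. Relative to Clec5a the difference was 0.60, with 6 of 9 below, and it was 0.14 without combination tumor 1270. The highest other ratio to Clec5a came from tumor 1517, where both genes had 3 counts. As Clec7a was chosen on its combination level, these ratios carry no test, and a difference between probes in capture efficiency means that the ratio's own size says nothing of which transcript was more abundant.

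**Figure D3:**
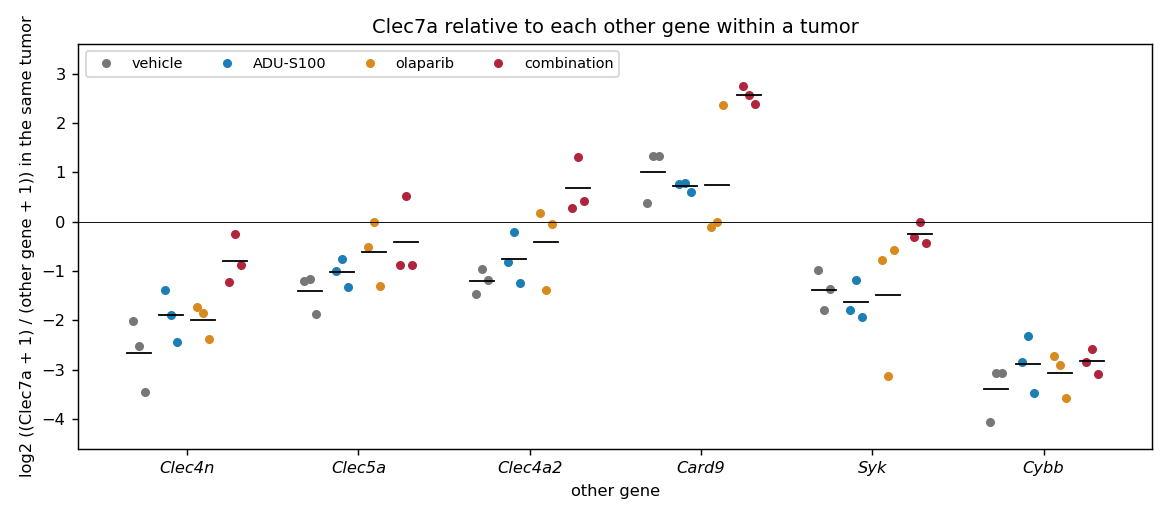
Log2 ratio of Clec7a to each of the 6 other genes in the same tumor, from normalized counts with 1 added, by treatment group, with points for tumors and lines for group means. The 3 combination points lie above all 9 others for Clec4n, Clec4a2 and Syk, overlap with them for Clec5a and Cybb, and for Card9 lie above them by a margin that is gone without the added 1.

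Across the 12 tumors, the genes most like Clec7a by Pearson correlation of log2 normalized counts, of 688 others, were Selplg, Ltb, Lcp1, Cybb and Cd69. The coefficients were 0.90 for Selplg (Spearman 0.81), 0.88 for Ltb (0.84), 0.84 for Lcp1 (0.80), 0.83 for Cybb (0.81) and 0.83 for Cd69 (0.76). Selplg encodes the P-selectin ligand PSGL-1, Ltb lymphotoxin beta, Lcp1 the leukocyte actin bundler L-plastin and Cd69 an early activation marker of lymphocytes. Ltb had been picked from these tumors by the study as Clec7a had. Cd69 had 2 counts in tumor 1517. All points share the tumor scaling and the combination group, so the coefficients are a description.

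Without the 2 tumors farthest from the Clec7a median, combination tumors 1251 and 1270, the coefficient for Cybb was 0.72. Within the 9 tumors not given the combination it was 0.56 for Cybb, which fell from place 4 to place 51, and 0.77 for Selplg. Clec5a was at similar values, 0.71 over all 12 tumors and 0.72 over the 9. Over all 12 tumors the remaining members were at 0.40 for Syk, 0.37 for Clec4n, 0.21 for Clec4a2 and 0.11 for Card9. Clec5a was also like Clec4n, at 0.76, and Cybb, at 0.74, and Clec4a2 was most like Syk, at 0.65.

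**Figure D4:**
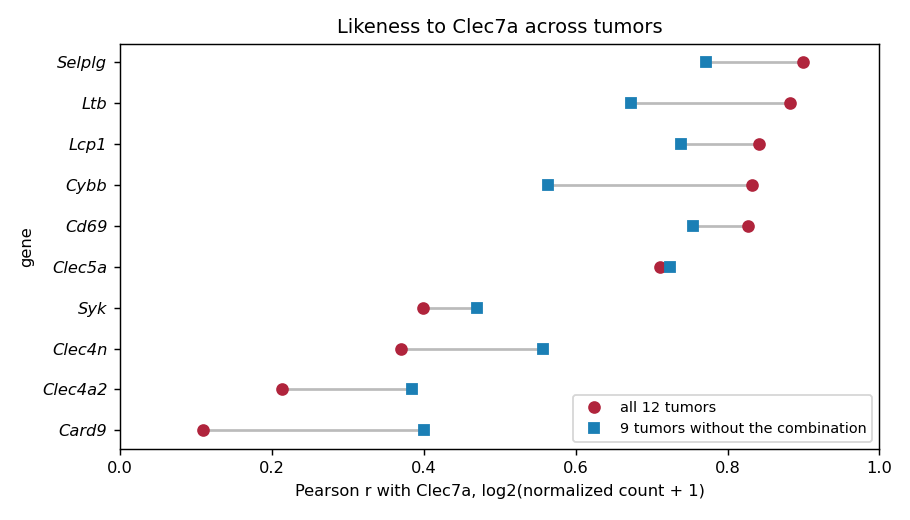
Pearson correlation with Clec7a of log2(normalized count + 1) for the 5 most similar genes and the remaining 5 members, over 12 tumors (circles) and over the 9 tumors without the combination (squares). Cybb drops from 0.83 to 0.56, while Clec5a stays at 0.71 and 0.72.

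The wider pathway was followed in 7 lists set by gene function, which held 72 tested genes beside the members. None passed the adjusted threshold in any comparison. At an unadjusted p under 0.05, where 7.69% of all genes passed, 3 were higher in the combination than with vehicle and 0 lower. Relative to ADU-S100, 4 of the 72 were lower and 1 higher (9.14% of all genes passed), and relative to olaparib 3 were lower and 2 higher (7.26%). More passed with olaparib alone, where 9 of the 72 were above vehicle and 1 below (7.26% of all genes), and with ADU-S100 alone 5 were above and 0 below (4.79%), with 65 of 72 higher at a median of 0.66, beside 78.2% of all genes higher and their median of 0.44. The 3 above vehicle were Il12b, Cd14 and Tnf, of which Tnf was named after its value was seen.

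Il12b, the p40 subunit of IL-12 and IL-23 that Dectin-1 can induce, was at 116, 37.9 and 63.1 normalized counts in the combination and at 19.1, 23.8 and 13.2 with vehicle. It was at 31.3, 19.6 and 14.3 with ADU-S100 and at 50.7, 52.4 and 21.2 with olaparib. The combination tumors were above all vehicle and ADU-S100 tumors but overlapped those given olaparib. Il12b was low in many tumors, with 5 counts in the lowest. The background level was 17.1, 9.82 and 9.27 in the ADU-S100 tumors and 31.4 in olaparib tumor 1517, where Il12b was at 52.4. The log2 difference from vehicle was 1.79 (SE 0.53, limma adjusted p = 0.278), from ADU-S100 1.61 (adjusted p = 0.492) and from olaparib 0.75 (adjusted p = 0.663). Tnf differed from vehicle by 1.11 (adjusted p = 0.594) in the combination and by 1.20 (adjusted p = 0.582) with olaparib alone.

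Cd14, the lipopolysaccharide co-receptor of monocytes and macrophages, was at 3465, 2483 and 2460 normalized counts in the combination and at 1132 to 2106 with vehicle. The highest of the 9 other tumors was ADU-S100 tumor 1506 at 2376, so Cd14 was among the 22 genes without overlap. Its difference from vehicle was 0.91 (SE 0.39, adjusted p = 0.553).

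The other measured partners of these receptors gave values on either side of 0. In the NADPH oxidase list 1 gene besides Cybb was measured, the cytosolic subunit Ncf4. Ncf4 was at 468, 374 and 466 normalized counts in the combination, 127 to 470 with vehicle, 295 to 1139 with ADU-S100 and 231 to 325 with olaparib. All combination tumors were above the olaparib tumors and overlapped the other groups. The difference was 0.60 from vehicle (SE 0.58, adjusted p = 0.949), -0.36 from ADU-S100 (adjusted p = 0.793) and 0.61 from olaparib (adjusted p = 0.73), and it was not tested against that of Cybb.

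In the list of signaling chains and Fc receptors that use Syk, 7 genes were tested, with a median of -0.07 over vehicle and -0.53 over ADU-S100. It ran from Fcgr4 at 0.73 (adjusted p = 0.946) to the lipid receptor Trem2 at -0.65 (adjusted p = 0.963) against vehicle. Trem2 was at 187, 150 and 167 normalized counts in the combination, within the vehicle range of 106 to 517 and below the ADU-S100 range of 264 to 1119.

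The 18 genes from Card9 and its partners to NF-kB and NFAT had a median of 0.25 over vehicle in the combination and 0.44 with olaparib. The largest difference over vehicle was that of the NF-kB inhibitor Nfkbia at 0.83 (adjusted p = 0.705) and the smallest that of Nfatc4 at -0.95. Nfkbia was highest with olaparib alone, at 1148, 1383 and 385 normalized counts against 532, 516 and 443 in the combination. Of the 8 kinases, adaptors and lipases near Syk, 7 were higher than vehicle, with a median of 0.29 and 0 past an unadjusted p of 0.05, beside 65.3% of all genes higher and their median of 0.21. They ran from Btk at -0.06 to the adaptor Blnk at 1.06.

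Other myeloid lectins were represented by 2 tested genes, the Langerhans cell receptor Cd207 at 1.01 (adjusted p = 0.96) and the mannose receptor Mrc1 at -1.32 (adjusted p = 0.949) against vehicle. The 12 co-receptors had a median of 0.37, with the scavenger receptor Colec12 lowest at -0.76. The 24 cytokines and inflammasome genes had a median of 0.39, with the cyclooxygenase gene Ptgs2 lowest at -1.32 (adjusted p = 0.83). Over all 72 genes the median difference of the combination was 0.32 with vehicle as the control, -0.26 with ADU-S100 and -0.14 with olaparib, beside 0.21, -0.22 and -0.15 for all 689.

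Markers of cells that can carry these genes were measured in the same tumors. For 11 of 12 macrophage markers the summed normalized counts were 7860 to 9754 in the combination, 4649 to 12127 with vehicle, 6024 to 13211 with ADU-S100 and 5138 to 8331 with olaparib. Against vehicle 5 of the 11 were higher, with a median of -0.03, and the defining markers Csf1r, Cd68 and C1qa had at least 64 counts in every tumor. Compared with ADU-S100 3 of the 11 were higher, with a median of -0.35, and compared with olaparib 8 were, with a median of 0.43. The part of macrophage content in the Clec7a and Cybb levels was not tested.

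Marker lists of other leukocytes had median differences above 0 between combination and vehicle, with no gene past the adjusted threshold. The 8 neutrophil markers tested were all higher, with a median of 1.02, where 65.3% of all genes were higher, and their sums were 1709 to 1964 in the combination and 1111 to 2251 with vehicle. They were as high with single agents, at medians of 1.18 over vehicle with ADU-S100 and 0.98 with olaparib, and 3 of 8 were higher in the combination than with ADU-S100. The 5 dendritic cell markers had a median of 1.01, with sums of 205 to 382 and 116 to 193. The 7 tested T cell markers were all higher, with a median of 1.39, and the sums over 8 markers were 336 to 547 and 104 to 211. All 7 were also higher than with ADU-S100 (median 1.11) and than with olaparib (median 0.74), where 40.3% and 41.4% of all genes were higher. T cell markers thus moved with Clec7a and Cybb in the 3 combination comparisons. NK cell sums were 389 to 486 and 160 to 204. Of the 6 NK cell markers tested, 5 were higher than with vehicle (median 0.93). Against ADU-S100 2 of 6 were higher (median -1.05), and against olaparib 2 of 6 (median -0.16). Sums in single-agent tumors reached 7863 for neutrophil, 707 for dendritic cell, 587 for T cell and 906 for NK cell markers. None of the defining markers in the table was listed at 0 in a tumor, and the part of these cells in the Clec7a and Cybb results was not tested.

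B cell, stromal, epithelial and general leukocyte markers were summed in the same way. Of 7 B cell markers 1 was tested, and their sums were 69.7 to 116 in the combination and 38.2 to 90.7 with vehicle. The 9 stromal markers were all lower in the combination than with vehicle, with a median of -0.92 and sums of 16223 to 30804 against 18883 to 98998. Against ADU-S100 0 of 9 were higher in the combination (median -0.94), and against olaparib 4 of 9 (median -0.40). With olaparib alone 1 of 9 was higher than vehicle (median -0.73), and with ADU-S100 alone 3 of 9 (median -0.20). For 3 epithelial markers the sums were 17779 to 20694 and 10802 to 21498. Sums over 4 general leukocyte markers, 714 to 795 in the combination and 291 to 928 with vehicle, overlapped.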

How the data were processed

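RNA of 12 tumors in 4 groups was measured on the nCounter mouse cancer immune panel. Per the study's methods, the authors used nSolver 4.0 for quality control, background correction and normalization to positive controls and 8 housekeeping genes, and discarded counts below the negative controls. The deposited values are a normalized signal per gene, and 0 columns belonged to other samples. Within a tumor 99.87% to 100% of values were whole multiples of a step within 0.01, which gave a factor of 0.589 to 10.5 and the counts quoted, and the step search and both models were tested on simulated data. In 7 tumors the smallest value was a floor or several steps, so there the counts, totals and intervals rest on the spacing of the other values alone. Here log2(value + 1) was fitted over all 12 tumors with a mean per group in limma 3.58.1 (R 4.3.3), with Benjamini-Hochberg adjustment over the 689 genes that reached 20 in 3 tumors. Alternatives were edgeR 4.0.16 fitted to the counts with TMM or with the authors' factors, other scalings, a pseudocount of 10, no filter, background subtraction, the number series of the tumors as a block, the methods' t-test and leaving out each tumor. Members, lists and tests were chosen with earlier results of these data known. The text names the members, the 5 genes most correlated with Clec7a and, per pathway list, the genes with the largest and smallest combination difference from vehicle. Promoter windows are RefSeq's (GRCm38.p6). Figures were drawn with matplotlib 3.10.9.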

Additional observations from a re-analysis of the deposited data

How the results depend on the processing

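Over 36 member differences, 252 values were recomputed under settings that can move them, of which 221 kept their direction and side of the threshold, 30 reversed and 1, Clec7a over olaparib with background subtracted, kept its direction but moved to 2.93. With a tumor of the compared groups left out, 194 of 222 kept both, 27 reversed and 1 passed the threshold. The absence of a filter, the methods' t-test and leaving out a tumor of another group leave a difference as it is and are not counted. The combination differences of Clec7a have no test, so only their direction and size were compared. The causes were not tested. Every Clec7a and Cybb difference of the combination from another group kept its sign in all settings run. With quantile normalization the reversed log2 differences were -0.20 for Clec7a, -0.42 for Clec5a, -0.48 for Clec4a2, -0.070 for Card9 and -0.29 for Cybb in ADU-S100 against vehicle, and -0.51 for Clec7a, -0.23 for Card9 and -0.046 for Syk in olaparib against vehicle. It also gave -0.14 for Card9 over vehicle, 0.091 for Card9 over olaparib and 0.086 for Syk over ADU-S100 in the combination. With the same median in every tumor, the values were -0.25 for Clec5a, -0.32 for Clec4a2 and -0.38 for Cybb with ADU-S100, -0.073 for Clec7a with olaparib and 0.045 for Syk in the combination over ADU-S100. edgeR with TMM gave -0.43 for Clec5a, -0.42 for Clec4a2 and -0.51 for Cybb with ADU-S100, -0.17 for Syk with olaparib, and -0.15 for Card9 over vehicle and -0.0056 for Clec4n over olaparib in the combination, and edgeR with the authors' factors gave 0.080 for Cybb with olaparib. With background subtracted, the values were -1.01 for Clec7a and -0.65 for Card9 with olaparib, -0.0069 for Clec4a2 with ADU-S100 and 0.91 for Card9 in the combination over olaparib, and the differences in the ratio of Clec7a moved to 1.96 over Clec4n and 0.86 over Cybb. The tumor numbers fall into 2 series of unstated meaning, and with the series as a block Clec4n was 0.15 over vehicle and Syk 0.28 over ADU-S100 in the combination, and Clec5a -0.084 with ADU-S100. No paired analysis was possible because the groups share no replicate number. Leaving out each tumor in turn gave, for the combination over vehicle, -0.71 to 0.30 for Clec4n and -0.33 to 0.087 for Clec4a2. Over ADU-S100 it gave -0.13 to 0.26 for Clec4n, -0.43 to 0.16 for Clec4a2 and -0.47 to 0.26 for Syk, and over olaparib -0.015 to 0.69 for Clec4n, -0.93 to 0.17 for Card9 and -0.034 to 0.84 for Syk. For ADU-S100 against vehicle the ranges were -0.82 to 0.19 for Clec4n, -0.22 to 0.46 for Clec5a, -0.28 to 0.31 for Clec4a2 and -0.30 to 0.19 for Cybb. For olaparib against vehicle they were -0.014 to 0.51 for Clec7a, -1.08 to 0.0082 for Clec5a, -0.20 to 0.84 for Syk and -0.51 to 0.26 for Cybb. The number of genes past the adjusted threshold, 0 in each comparison, was 3 in the combination over vehicle by the methods' t-test when adjusted by Benjamini-Hochberg and 0 with the study's Benjamini-Yekutieli adjustment (added after the data were seen), and 1 in the combination over ADU-S100 with a pseudocount of 10, with the same median and with quantile normalization. With a tumor left out it ran from 0 to 1 for the combination over ADU-S100 (1 without ADU-S100 tumor 1506), from 0 to 54 over olaparib and from 0 to 55 for olaparib against vehicle, the highest counts both without olaparib tumor 1521. At an unadjusted p under 0.05 the number of genes moved more, over all settings from 24 to 86 for the combination over vehicle, from 11 (series block) to 122 (the methods' t-test) over ADU-S100 and from 15 (series block) to 199 (without tumor 1521) over olaparib. For the single agents against vehicle it ran from 13 to 79 with ADU-S100 and from 11 to 225 with olaparib, both highest without tumor 1521. Of the member differences that were tested, Cybb against olaparib was the single one to pass the adjusted threshold in any setting. The Clec7a differences of the combination had no test in any setting, and without olaparib tumor 1521 that from olaparib was 1.69. Depth limits Clec7a, Clec5a and Card9 most in tumor 1517, where each had 3 counts.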
